A study of Mus musculus with 12 samples.

Results

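The MS4A genes described here are the 10 listed members of the membrane-spanning 4-domain family on mouse chromosome 19 (Ms4a1, Ms4a2, Ms4a3, Ms4a4a, Ms4a4b, Ms4a4c, Ms4a6b, Ms4a6c, Ms4a6d and Ms4a7), out of 21853 genes in the deposited table and 19 Ms4a symbols in it. The members were chosen by name with earlier results of these data known, in which the measured FPKM of Ms4a1 in irradiated against control marrow, and of Ms4a4a and Ms4a6d in treated against control marrow, stood out. For this reason irradiation against control, and treatment alone against control, are given as descriptions, with no p-value for any member. RNA of whole bone marrow cells from mice that the labels call B6 was sequenced, with 3 libraries in each of 4 groups. Control mice were not irradiated. TBI mice received 5 Gy of gamma rays to the whole body at 0.66 Gy per minute followed by gavage with 100 µL of the olive oil vehicle. TBI+DEIX mice received the same irradiation and then oral DEIX at 25 mg per kg of body weight each day for 14 days, and DEIX mice received DEIX without irradiation. DEIX is deinoxanthin by the series title, a carotenoid pigment of a radiation-resistant bacterium. Marrow was taken 14 days after irradiation. The labels give vehicle for the TBI group, name no age or sex, and do not say how many mice made up a library, so p-values measure the spread between these libraries.

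MS4A proteins cross the plasma membrane 4 times, and many of them sit beside a receptor and tune its signal. The family is known for being divided among blood lineages: Ms4a1 encodes CD20 of B cells, Ms4a2 the beta chain of the high-affinity IgE receptor of basophils and mast cells, Ms4a3 a protein of granulocyte and monocyte progenitors, Ms4a4b a protein of T and NK cells, and most of the Ms4a4, Ms4a6 and Ms4a7 genes are known from monocytes and macrophages. In whole marrow the members therefore read the RNA of several lineages. In such bulk samples fewer cells of a type and less RNA per cell cannot be told apart.

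All 19 symbols lie between 10962293 and 11640851 on chromosome 19 (GRCm38, GENCODE vM21). The 10 members all passed the filter for testing, which asked for 1 FPKM or more (fragments scaled to transcript length and to the mapped fragments of the library) in 3 or more of the 12 libraries. Of the 9 other symbols, 5 were listed at 0 in every library (Ms4a5, Ms4a10, Ms4a12, Ms4a13 and Ms4a18), and 8, those included, stayed under 1 FPKM everywhere. The remaining one is Ms4a8a, which is outside the list although its mean over the 12 libraries, 8.99 FPKM, was above those of 3 members: Ms4a1 at 7.80, Ms4a4b at 3.67 and Ms4a7 at 1.84. The highest member was Ms4a3, at 183 FPKM.

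How far reads could be shared among these genes bears on every value of the Ms4a4 and Ms4a6 members. Ms4a4b and Ms4a4c have coding sequences that are 91.74% identical, and share an unbroken run of 127 bases. Ms4a6b was 86.43% identical to Ms4a6c and 81.76% to Ms4a6d, Ms4a6c was 79.59% identical to Ms4a6d, and the other pairs among the members and Ms4a8a were between 60.83% and 69.91%. Of the 50-base windows over all transcripts, 7.73% of those of Ms4a4c and 1.53% of those of Ms4a4b were found in the other gene, as were 5.85% of those of Ms4a6c and 2.57% of those of Ms4a6b. For Ms4a6b and Ms4a6d these shares were 0.88% and 2.31%. Ms4a2 and Ms4a4b, only 63.46% identical in coding sequence, also shared windows, 2.1% of those of Ms4a2 and 0.71% of those of Ms4a4b. Levels within these pairs are thus uncertain where the authors' counting could split reads, although most windows are unique to 1 gene. The first 60 coding bases of the closest pair, from the transcripts of GENCODE vM21, show how near they are; capitals mark the 5 bases that differ.
Ms4a4b: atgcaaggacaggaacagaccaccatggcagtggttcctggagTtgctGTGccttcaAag
Ms4a4c: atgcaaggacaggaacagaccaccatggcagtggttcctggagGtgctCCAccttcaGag

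The same pair is also alike upstream of its starts. The 90 bases from 100 to 11 before the RefSeq start sites (GRCm38.p6, both on the plus strand) are shown because these 2 genes are the nearest copies and their levels are compared below; over 86 paired bases 90.7% were identical. The window of Ms4a4c is chr19:11407561-11407650, inside the gene as GENCODE draws it but in none of its exons, and that of Ms4a4b is chr19:11443458-11443547. Capitals mark GAGGAA, a sequence of the kind bound by ETS factors such as PU.1.
Ms4a4c: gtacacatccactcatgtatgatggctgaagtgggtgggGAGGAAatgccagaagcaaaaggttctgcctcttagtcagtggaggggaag
Ms4a4b: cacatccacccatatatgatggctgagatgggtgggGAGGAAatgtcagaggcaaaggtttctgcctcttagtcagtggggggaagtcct

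Ms4a2 was the member with matches to AGATAA, the sequence read by GATA factors, of which GATA2 is a factor of basophils and mast cells. Its 250 bases before the RefSeq start (GRCm38.p6, chr19:11623720-11623969, minus strand) hold 3 matches on either strand, in capitals below, the first bases of which lie 224, 37 and 11 bases before the start.
Ms4a2: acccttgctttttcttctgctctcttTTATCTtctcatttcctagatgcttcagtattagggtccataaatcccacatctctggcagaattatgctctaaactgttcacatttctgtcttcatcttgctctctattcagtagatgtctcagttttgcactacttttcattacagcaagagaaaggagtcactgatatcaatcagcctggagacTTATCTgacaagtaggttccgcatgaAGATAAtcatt

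Promoters were held for 8 of the 10 members, with 9 start sites, and 5 motifs were searched on both strands. AGATAA was in 9.988% of 32851 promoters of the same length and in 1 of the 9. GAGGAA was in 23.253% of all promoters and in 2 of the 9, those of Ms4a4b and Ms4a4c. ATGCAAAT, the octamer, was in 1.601% of all and in that of Ms4a4c, where it starts 170 bases before the start, outside the window shown. GAGGAAGT, a longer PU.1 sequence that contains GAGGAA, was in 2.441% of all and in none of the 9, and TTGCNNAA of C/EBP factors was in 9.564% of all and in none of the 9. A match is a description of letters. The longest unbroken run shared by 2 members' promoters was 48 bases, in Ms4a6b and Ms4a6c, followed by 20 bases in Ms4a4b and Ms4a4c, and no other pair shared more than 12. In Ms4a6b the run of 48 lies 118 to 71 bases before the start, in a window of which 106 bases overlap annotated exons. Whether the run itself is transcribed was not tested. For Ms4a6c and Ms4a4a the first 50 bases from the RefSeq start did not match the start of a GENCODE transcript.

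Some facts of the libraries touch the values that follow. From the steps in low values, 1 FPKM on a transcript of 1 kilobase stood for between 21.2 and 53.4 fragments, the lowest in TBI+DEIX replicate 1, and the fewest fragments behind any member's value were about 21, for Ms4a1 in that library. That library also stood apart: its mean correlation with its own group was 0.933, against 0.955 to 0.991 in the others. Its summed markers were the lowest of all 12 for most lists (B cells, their precursors, T and NK cells, basophils and mast cells, monocytes, neutrophils, eosinophils, erythroid cells, plasma cells and interferon response), but not for promyelocytes, macrophages or dendritic cells. Over the tested genes the within-group SD of log2(FPKM + 1) was 0.140 in control, 0.225 in TBI, 0.236 in DEIX and 0.418 in TBI+DEIX. Results that rest on TBI+DEIX are therefore also given without replicate 1 where that changes a call or moves a value by over 1.5 times.

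**Figure D1:**
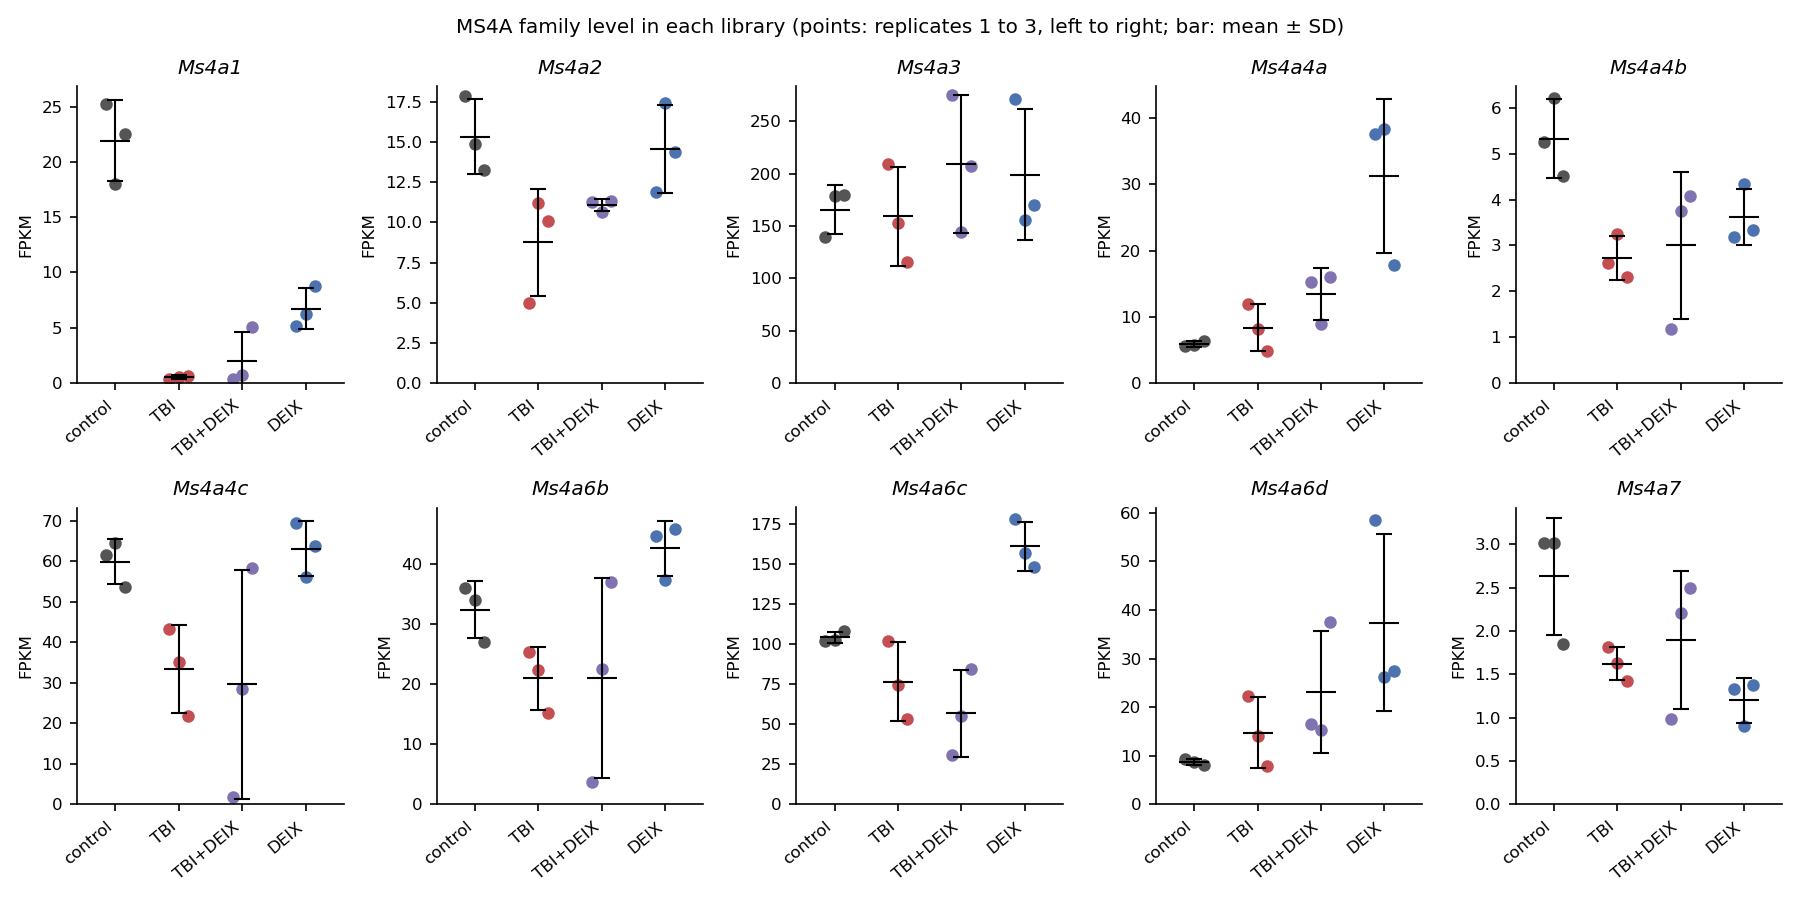
FPKM of each member (vertical axis, linear, from 0) in the 12 libraries by group; points are replicates 1 to 3 from left to right, and bars are the mean ± SD of 3 libraries. Ms4a1 is highest in control, Ms4a4a, Ms4a6c and Ms4a6d are highest in DEIX, Ms4a7 is lowest in DEIX, and Ms4a4c and Ms4a6b lie far below the rest in TBI+DEIX replicate 1.

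Ms4a1, CD20, varied most among the groups. Its level was 25.2, 18.0 and 22.6 FPKM in the 3 control libraries and 0.314, 0.546 and 0.664 in the TBI libraries. In TBI+DEIX it was 0.322, 0.682 and 5.05 FPKM, and in DEIX 5.14, 6.28 and 8.78. Every TBI library was below 1 FPKM, and the DEIX libraries lay between them and control without overlap. TBI+DEIX overlapped TBI through replicate 1. Its replicate 2 was just above the highest TBI library, and its replicate 3 was close to the lowest DEIX library. The mean in control was 43.2 times that in TBI. On the log2(FPKM + 1) scale, which understates changes of low genes, TBI was lower than control by a fitted difference of -3.92 (SE 0.44) and DEIX by -1.58 (SE 0.44).

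B cell precursor genes lay below control in DEIX, as CD20 did, and varied within TBI. Igll1, part of the surrogate light chain of the pre-B cell receptor, was at 37.5, 38.3 and 35.2 FPKM in control, at 6.51, 74.9 and 94.2 in TBI and at 1.38, 3.85 and 4.12 in DEIX. The sum of 6 precursor genes (Rag1, Rag2, Dntt, Vpreb1, Igll1 and Il7r) was 147.9 to 163.7 FPKM in control, 21.6, 227 and 294 in TBI replicates 1 to 3, and 12.7 to 26.3 in DEIX. The sum in TBI replicates 2 and 3 was above every control library, with Ms4a1 below 1 FPKM, and was carried by Igll1, Vpreb1 and Dntt. Il7r, a chain of the interleukin-7 receptor, went the other way, at 21.3, 17.7 and 15.5 FPKM in control and 2.06, 7.67 and 9.19 in TBI. Rag1 and Rag2, the recombinase genes, were below every control library in TBI replicates 1 and 2, while in replicate 3 Rag1 was within the control range and Rag2 above it. In TBI+DEIX the precursor sum was 6.11, 123.7 and 31.9 FPKM in replicates 1 to 3, beside Ms4a1 at 0.322, 0.682 and 5.05, so replicate 2 had the most precursor RNA and replicate 3 the most Ms4a1. Of the 6 precursor genes 1 fell in TBI, 2 in DEIX and 3 in TBI+DEIX against control, and without TBI+DEIX replicate 1 these counts were 1, 5 and 2. The broader sum of 13 B cell markers (Cd79a, Cd79b, Cd22 and others) was 504.7 to 639.4 FPKM in control, 26.4 to 214 in TBI, 85.3 to 120.3 in DEIX and 9.15 to 132.6 in TBI+DEIX. Of these 13 markers 7 fell in TBI, 6 in DEIX and 12 in TBI+DEIX against control, by limma with Benjamini-Hochberg adjustment over all 10994 tested genes, and none rose; of all tested genes 3.1%, 2.72% and 13.1% fell in these comparisons. With TBI+DEIX replicate 1 left out, 9, 11 and 10 fell. In those fits 1337, 2394 and 4232 of the 10994 tested genes were called, 40.8%, 61.1% and 60.2% of them higher and the rest lower. The same shares stand beside the counts of the 6 precursor genes. Cd79b, a signalling chain of the B cell receptor, was at 122, 111 and 138 FPKM in control and at 7.43, 34.1 and 41.8 in TBI. In TBI replicates 2 and 3 it thus kept more of its control level than Ms4a1 did. The markers differed in this. Fcmr of the same list fell about as far as Ms4a1, from 19.8, 15.9 and 22.3 FPKM in control to 0.315, 0.343 and 0.592 in TBI.

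Ms4a2, the IgE receptor beta chain, varied less. It was at 17.9, 14.9 and 13.3 FPKM in control, 4.98, 11.2 and 10.1 in TBI, 11.9, 17.4 and 14.4 in DEIX and 11.3, 10.7 and 11.3 in TBI+DEIX. Both irradiated groups lay below all control libraries, and DEIX overlapped control. The fitted difference was -0.80 (SE 0.24) for TBI and -0.07 (SE 0.24) for DEIX. In TBI+DEIX against control it was -0.43 (SE 0.24, adjusted p 0.196 by limma), which did not pass the test. TBI replicate 1 held the lowest Ms4a2 value, and the sum of 12 basophil and mast cell genes there, 226.5 FPKM, was likewise the lowest of the group, against 490.4 to 574.7 in control. In TBI+DEIX replicate 1 that sum was 209.6 FPKM with Ms4a2 at 11.3. That sum rests on its most abundant genes: Prss34 was lowest of the group there, while Kit was the highest of the group. Of the 8 list genes tested, 2 fell in TBI+DEIX against control, where 13.1% of all tested genes fell. Without TBI+DEIX replicate 1, 1 fell and 1 rose. In that fit 4232 tested genes were called, 60.2% of them higher and the rest lower, against 3299 and 56.2% with all libraries. One of the first 2 was Prss34, a basophil protease, at 213, 215 and 248 FPKM in control and 41.2, 110 and 161 in TBI+DEIX (log2 change -1.31, SE 0.44, adjusted p 0.0439 by limma, and -0.75 and 0.0908 without replicate 1). Hdc of the same list was at 93.9, 87.5 and 112 FPKM in control and 90.7, 269 and 216 in TBI+DEIX. It was the gene that rose without replicate 1 (1.30, adjusted p 0.00315 by limma).

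Of 6 genes of the receptor and its signalling, Lyn and Syk rose in TBI+DEIX against TBI, where 4.69% of the tested genes rose. Without TBI+DEIX replicate 1, 4 of the 6 rose. In that fit 2836 tested genes were called, 62.8% of them higher, against 891 and 57.9% with all libraries. Lyn, the kinase that phosphorylates the beta chain, was at 111, 88.9 and 86.9 FPKM in TBI and 148, 154 and 174 in TBI+DEIX (log2 change 0.73, SE 0.12, adjusted p 0.016 by limma). Btk, another kinase of the list, was between 39.8 and 42.1 FPKM in TBI and between 42.0 and 46.3 in TBI+DEIX, and did not pass (0.11, adjusted p 0.44 by limma). Lyn and Syk are made by many marrow cells, and the receptor chain Ms4a2 itself overlapped between these groups.

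Ms4a3, a progenitor gene whose product is known to bind the phosphatase Cdkn3, was the most abundant member and the steadiest. It was at 139, 179 and 179 FPKM in control, 209.6, 153 and 116 in TBI, 271, 156 and 170 in DEIX and 275.5, 144 and 207 in TBI+DEIX. All 4 groups overlapped, and replicate 1 was the highest of each of the 3 treated groups. Its fitted differences ran from -0.09 (SE 0.29) in TBI to 0.29 (SE 0.29, adjusted p 0.466 by limma) in TBI+DEIX against control, which was 0.07 without TBI+DEIX replicate 1. Of 7 promyelocyte genes 1 fell in TBI+DEIX against control, where 13.1% of all tested genes fell: Elane, neutrophil elastase, at 838, 1111 and 1259 FPKM in control and 516, 521 and 612 in TBI+DEIX (log2 change -0.94, SE 0.26, adjusted p 0.0208 by limma). Without TBI+DEIX replicate 1, 3 fell and 1 rose, with Elane at -0.90 (adjusted p 0.027 by limma). In that fit 4232 tested genes were called, 60.2% of them higher and the rest lower, against 3299 and 56.2% with all libraries. In TBI+DEIX replicate 1 Ms4a3 was at its highest value of all. Elane and Cebpe were at their lowest there, while Mpo, Prtn3, Ctsg, Gfi1 and Cebpa of the same list were highest there within the group, and the sum of the list, 3107 FPKM, was above the 1959 and 2551 of the other replicates. Cdkn3 itself was between 22.2 and 29.4 FPKM in every library and was not called in any comparison.

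Ms4a4b, the T and NK cell member, was at 5.25, 6.23 and 4.51 FPKM in control and 2.62, 3.25 and 2.32 in TBI. It was at 3.19, 4.33 and 3.34 in DEIX and 1.17, 3.75 and 4.08 in TBI+DEIX. All 9 treated libraries were below all 3 control libraries, and the treated groups overlapped one another. The fitted difference from control was -0.76 (SE 0.27) in TBI and -0.45 (SE 0.27) in DEIX, and in TBI+DEIX it was -0.75 (SE 0.27, adjusted p 0.0598 by limma), short of the threshold of 0.05; without TBI+DEIX replicate 1 it was -0.36 (adjusted p 0.0866). The sum of 14 T and NK cell genes was 207.6 to 242 FPKM in control, 117 to 155 in TBI, 162 to 213 in DEIX and 67.4 to 174.7 in TBI+DEIX. Of these 14, 4 fell in TBI, 2 in DEIX and 6 in TBI+DEIX against control, where 3.1%, 2.72% and 13.1% of all tested genes fell, among them Gzma, a granzyme of cytotoxic cells, at 16.5, 23.1 and 14.0 FPKM in control and 3.26, 6.51 and 3.81 in TBI+DEIX (log2 change -1.79, SE 0.30, adjusted p 0.0018 by limma). Of the same 14, 12, 7 and 6 fell without TBI+DEIX replicate 1. In those fits 1337, 2394 and 4232 tested genes were called, 40.8%, 61.1% and 60.2% of them higher and the rest lower. With all libraries 439, 796 and 3299 were called, 22.3%, 62.4% and 56.2% of them higher. Tnfrsf18 (GITR), the receptor that Ms4a4b is known to associate with, was between 3.95 and 12.2 FPKM and was not called with all libraries; without TBI+DEIX replicate 1 it was higher in TBI+DEIX than in control by 0.73 (adjusted p 0.0244 by limma).

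The monocyte members fell into 3 patterns over the groups. Ms4a4c and Ms4a6b were at about the same level in DEIX as in control or a little above, and lower in TBI. Ms4a6c was higher in DEIX. Ms4a4a and Ms4a6d were several times higher in DEIX and were also higher in TBI+DEIX than in control.

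Ms4a4c, near its copy Ms4a4b in sequence but far above it in level, was at 61.5, 64.4 and 53.7 FPKM in control, 43.3, 35.1 and 21.7 in TBI, 69.4, 56.0 and 63.8 in DEIX and 1.89, 28.5 and 58.4 in TBI+DEIX. TBI lay below control without overlap, and the TBI+DEIX libraries spread 30.8-fold from lowest to highest. The fitted difference from control was -0.87 (SE 0.81) in TBI and 0.07 (SE 0.81) in DEIX. Ms4a6b had a like order of groups. It was at 36.0, 34.0 and 27.1 FPKM in control, 25.3, 22.3 and 15.2 in TBI, 44.7, 37.3 and 45.7 in DEIX and 3.81, 22.5 and 36.9 in TBI+DEIX, and its TBI+DEIX libraries spread 9.69-fold. Neither gene was called in TBI+DEIX against control (-1.82, SE 0.81, adjusted p 0.114 for Ms4a4c, and -1.03, SE 0.57, adjusted p 0.193 for Ms4a6b, by limma), and without TBI+DEIX replicate 1 the differences shrank to -0.54 and -0.15.

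Ms4a6c was at 102, 103 and 109 FPKM in control, 102, 74.4 and 53.2 in TBI, 178, 157 and 148 in DEIX and 30.8, 55.1 and 84.6 in TBI+DEIX. DEIX lay above control and TBI+DEIX below it, both without overlap, and TBI replicate 1 was just under the lowest control library. The fitted difference from control was 0.62 (SE 0.31) in DEIX and -0.49 (SE 0.31) in TBI. In the same libraries the sum of 11 monocyte genes was 2051 to 2090 FPKM in control, 2421 to 2774 in DEIX, 1406 to 2209 in TBI and 856 to 2682 in TBI+DEIX. Of the 11, 4 rose in DEIX against control, where 4.52% of the tested genes rose, and 7 rose without TBI+DEIX replicate 1. In that fit 2394 tested genes were called, 61.1% of them higher, against 796 and 62.4% with all libraries.

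Ms4a4a, whose product is known from macrophages, was at 5.56, 5.77 and 6.33 FPKM in control, 11.99, 8.17 and 4.89 in TBI, 37.7, 38.3 and 17.8 in DEIX and 15.3, 8.93 and 16.0 in TBI+DEIX. DEIX was above every other library, and TBI+DEIX was above control without overlap. The mean in DEIX was 5.31 times that in control, with a fitted difference of 2.15 (SE 0.33). Ms4a6d was at 9.42, 8.77 and 8.08 FPKM in control, 22.4, 14.0 and 7.92 in TBI, 58.5, 26.3 and 27.4 in DEIX and 16.6, 15.3 and 37.5 in TBI+DEIX, with a DEIX mean 4.27 times that in control and a fitted difference of 1.88 (SE 0.41). For this gene DEIX and TBI+DEIX overlapped, and both lay above control. In TBI both genes were just below the control libraries in replicate 3 and highest in replicate 1.

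Ms4a7, a macrophage and microglia gene, went the other way. It was at 3.02, 3.02 and 1.85 FPKM in control, 1.81, 1.64 and 1.43 in TBI, 1.33, 0.906 and 1.37 in DEIX and 0.991, 2.204 and 2.49 in TBI+DEIX. DEIX lay below TBI and TBI below control without overlap, and TBI+DEIX overlapped all of them. The fitted difference from control was -0.45 (SE 0.21) in TBI and -0.71 (SE 0.21) in DEIX. The sum of 13 macrophage genes was 167 to 209 FPKM in control, 84.2 to 129.6 in TBI, 76.1 to 96.9 in DEIX and 147.8 to 226.6 in TBI+DEIX. Of the 12 tested, 3 fell in TBI and 8 in DEIX against control, where 3.1% and 2.72% of all tested genes fell, and 7 rose in TBI+DEIX against DEIX, where 0.81% of the tested genes rose. Without TBI+DEIX replicate 1 these counts were 5, 10 and 8. In those fits 1337, 2394 and 927 tested genes were called, 40.8%, 61.1% and 57.3% of them higher and the rest lower. With all libraries 439, 796 and 283 were called, 22.3%, 62.4% and 31.4% of them higher. C1qb, a chain of the first complement component, was at 37.3, 36.7 and 31.9 FPKM in control, 27.1, 45.0 and 36.5 in TBI+DEIX and 12.98, 10.6 and 12.9 in DEIX (TBI+DEIX against DEIX 1.48, SE 0.20, adjusted p 0.00657 by limma). Adgre1 (F4/80), a macrophage surface receptor, was at 13.8, 23.8 and 19.3 FPKM in DEIX and 16.1, 13.7 and 12.3 in control, and was not called lower there. Ms4a4a, also known from macrophages, was highest in DEIX.

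**Figure D2:**
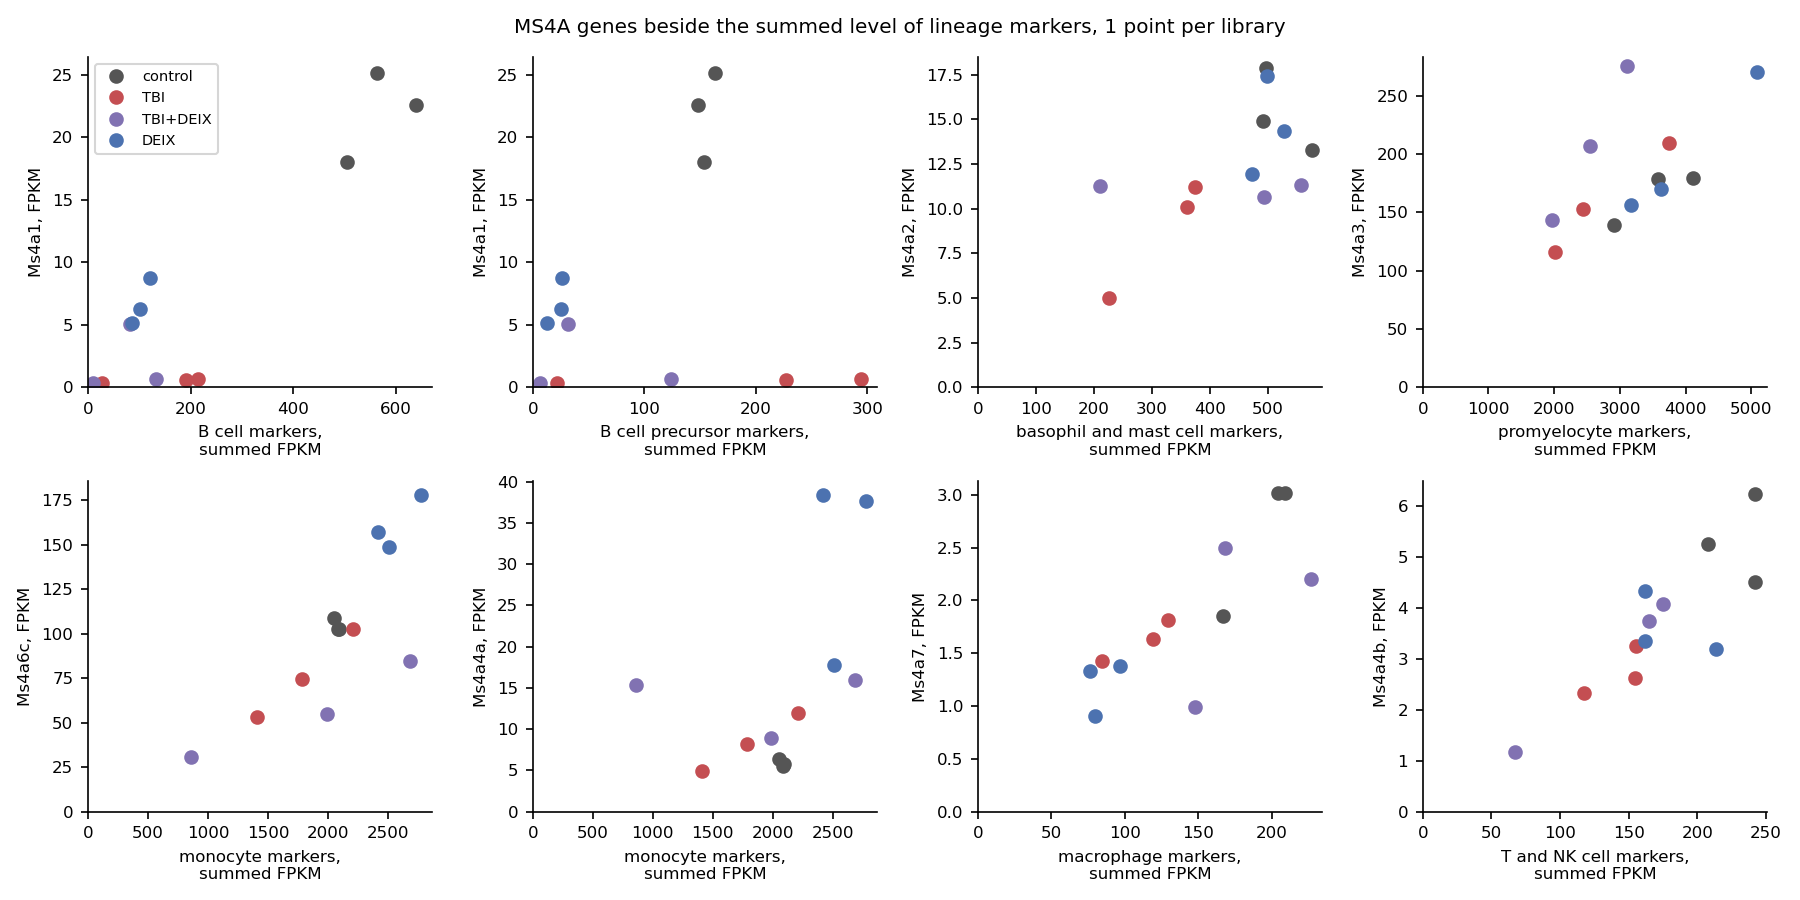
FPKM of a member (vertical axis) against the summed FPKM of a lineage marker list (horizontal axis), both linear from 0, 1 point per library, coloured by group. TBI replicates 2 and 3 have the highest B cell precursor sums, 227 and 294, with Ms4a1 below 1 FPKM; the 3 DEIX libraries have Ms4a4a well above the control libraries at somewhat higher monocyte sums.

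Ms4a8a is outside the list and is given because its mean level was above those of 3 members. It was at 5.76, 5.88 and 6.28 FPKM in control, 6.09, 6.39 and 5.20 in TBI, 18.6, 17.5 and 16.0 in DEIX and 4.78, 5.86 and 9.55 in TBI+DEIX. Every DEIX library was above every other library. Its fitted difference was 1.39 (SE 0.18) in DEIX against control and -1.29 (SE 0.18) in TBI+DEIX against DEIX, with no p-value, since it was picked out here after its values were seen. Tmem176a and Tmem176b, relatives of the family on chromosome 6, were between 8.65 and 64.6 FPKM and were not called in any comparison with all libraries; without TBI+DEIX replicate 1, Tmem176b was higher in TBI+DEIX than in TBI by 0.92 (adjusted p 0.0479 by limma).

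Side by side, the members gave these counts. In TBI against control 1 of 10 was called, where 3.99% of the tested genes were called; the libraries of 7 did not overlap, all lower in TBI, where 38.2% of tested genes did not overlap in either direction and 16.3% were lower. The median change of the members was -0.56, and of all tested genes 0.05. In DEIX against control 2 of 10 were called, both higher, where 7.24% of the tested genes were called and 4.52% were called higher; 7 did not overlap, 4 higher and 3 lower, where 40.6% of tested genes did not, 23.4% higher and 17.2% lower. The median change was 0.15, and of all tested genes 0.02. Nothing is read from the counts of these comparisons, which chose the genes. They also share the control libraries with TBI+DEIX against control.

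Irradiated mice given DEIX were compared with irradiated mice given vehicle, which asks what DEIX did after irradiation. None of the 10 members passed the test, where 8.1% of the tested genes did, and none reached an unadjusted p of 0.05, where 27.2% did. The libraries of every member overlapped between the groups, where those of 27.2% of the tested genes did not. The fitted differences ran from -0.95 (SE 0.81, adjusted p 0.493 by limma) for Ms4a4c to 0.66 (SE 0.44, adjusted p 0.366) for Ms4a1, and the lowest adjusted p was 0.235, for Ms4a4a (0.66, SE 0.33). Without TBI+DEIX replicate 1 none passed either, and Ms4a4c and Ms4a6b turned from -0.95 and -0.40 to 0.34 and 0.47. The difference of Ms4a1 was 1.09 without the first of the TBI+DEIX libraries and -0.01 without the third. This comparison shares the TBI libraries with TBI against control, so the value of Ms4a1 in it is not independent of the choice of the list.

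TBI+DEIX against control asks how far irradiated and treated marrow was from untreated marrow. Of the 10 members 4 were called, Ms4a1 and Ms4a6c lower and Ms4a4a and Ms4a6d higher, where 30% of the tested genes were called, 16.9% higher and 13.1% lower. Ms4a1, Ms4a4a and Ms4a6d had stood out against these same control libraries, so this is no independent test of them, nothing is read from the count, and they are given with no p-value. The fitted difference of Ms4a1 was -3.26 (SE 0.44), that of Ms4a4a 1.03 (SE 0.33) and that of Ms4a6d 1.19 (SE 0.41). Without TBI+DEIX replicate 1 the members called were 2, Ms4a1 and Ms4a6d. In that fit 4232 tested genes were called, 60.2% of them higher, against 3299 and 56.2% with all libraries. Ms4a6c fell by 0.98 on the log2 scale (SE 0.31, adjusted p 0.0339 by limma), and without TBI+DEIX replicate 1 it was at -0.61 (adjusted p 0.0654). All 4 were in separate ranges in the 2 groups, as were Ms4a2 and Ms4a4b, 6 of 10, where 44.9% of the tested genes were. The median change of the members was -0.59, and of all tested genes 0.02. That median rests in part on TBI+DEIX replicate 1. With it Ms4a4b, Ms4a4c, Ms4a6b and Ms4a7 were at -0.75, -1.82, -1.03 and -0.35, and without it at -0.36, -0.54, -0.15 and -0.10. Ms4a2, Ms4a3 and Ms4a4a moved down without it, to -0.44, 0.07 and 0.92.

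The calls of Ms4a6c, Ms4a4a and Ms4a6d were near the threshold. That of Ms4a6c was lost without control replicate 1, 2 or 3 (adjusted p 0.0771, 0.0838 and 0.0923) or TBI+DEIX replicate 2 (0.0567), with no filter on low values (0.0594) and with only the 2 groups in the fit (0.0868), by limma in each case. Ms4a4a lost its call without control replicate 1, 2 or 3, TBI replicate 2, or TBI+DEIX replicate 1 or 3, with no filter, and on the TPM scale (FPKM rescaled to the same total in each library). Ms4a6d lost its call without control replicate 1, 2 or 3, TBI replicate 2, DEIX replicate 2 or 3, or TBI+DEIX replicate 3, and with no filter. Calls also came in: Ms4a4b passed without TBI+DEIX replicate 2 or 3 (0.0399 and 0.0302), Ms4a4c and Ms4a6b without TBI+DEIX replicate 3 (0.0211 and 0.0374), and Ms4a2 without TBI replicate 1 (0.0478).

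TBI+DEIX against DEIX asks what irradiation did in treated mice. Ms4a6c fell, by 1.60 on the log2 scale (SE 0.31, adjusted p 0.0249 by limma), 1 of 10 members, where 2.57% of the tested genes were called and 1.76% were called lower. Its mean was 161 ± 15.2 FPKM in DEIX and 56.9 ± 27.0 in TBI+DEIX (SD, n = 3), 2.84 times lower in the irradiated mice. The ranges of 5 members did not overlap (Ms4a1, Ms4a2, Ms4a4a, Ms4a6b and Ms4a6c), all lower in TBI+DEIX, where 17.7% of the tested genes did not overlap and 8.96% were lower. Ms4a1 (-1.67, SE 0.44, adjusted p 0.0766) and Ms4a4a (-1.13, SE 0.33, adjusted p 0.114) did not pass the test. This comparison shares the DEIX libraries with DEIX against control, so the values of Ms4a4a and Ms4a6d there are not independent of the choice of the list.

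The call of Ms4a6c held without TBI+DEIX replicate 1 (-1.22, adjusted p 0.0158 by limma). It was lost without TBI+DEIX replicate 2 (adjusted p 0.053), DEIX replicate 1, 2 or 3 (0.0722, 0.0804 and 0.0773) or control replicate 2 (0.0505), and with only the libraries of these 2 groups in the fit (0.21), where no gene of the table was called. Ms4a7 passed without TBI+DEIX replicate 1, at 0.61 higher in TBI+DEIX (adjusted p 0.0467), and Ms4a1 without TBI+DEIX replicate 3, at -2.35 (adjusted p 0.00191). Among the 11 monocyte genes 4 fell in the same comparison, where 1.76% of all tested genes fell, and 7 fell without TBI+DEIX replicate 1. In that fit 927 tested genes were called, 57.3% of them higher and the rest lower, against 283 and 31.4% with all libraries. F13a1, a coagulation factor chain of monocytes, was at 249, 233 and 223 FPKM in DEIX and 111, 69.8 and 90.0 in TBI+DEIX (log2 change -1.39, SE 0.21, adjusted p 0.0093), so it was low in all 3 TBI+DEIX libraries, as Ms4a6c was.

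The interaction, the DEIX difference in irradiated mice minus that in unirradiated mice, was called for none of the 10 members by limma, where 0.2% of the tested genes were called. At an unadjusted p under 0.05 there were 5 members (Ms4a1, Ms4a4a, Ms4a6c, Ms4a6d and Ms4a7), where 7.5% of the tested genes were. The interaction contains the differences from control for which Ms4a1, Ms4a4a and Ms4a6d stood out, so it is no independent test of them and nothing is read from this count. It was 2.25 (SE 0.63) for Ms4a1 and -1.50 (SE 0.47) for Ms4a4a, given with no p-value, and 0.81 (SE 0.30, adjusted p 0.523 by limma) for Ms4a7. Without TBI+DEIX replicate 1 there were 2 members called, Ms4a7 (1.06, adjusted p 0.0284 by limma) and Ms4a1 (2.67). Nothing is read from the value of Ms4a1, for the reason given. In that fit 331 tested genes were called, 85.2% of them positive, against 22 and 95.5% with all libraries. Of the 12 macrophage genes 5 were called with all libraries, all positive, where 0.191% of the tested genes were. C1qb was at 2.43 (SE 0.29, adjusted p 0.0142 by limma). Without TBI+DEIX replicate 1, 8 of the 12 were called, all positive, in the fit with 331 tested genes called.

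**Figure D3:**
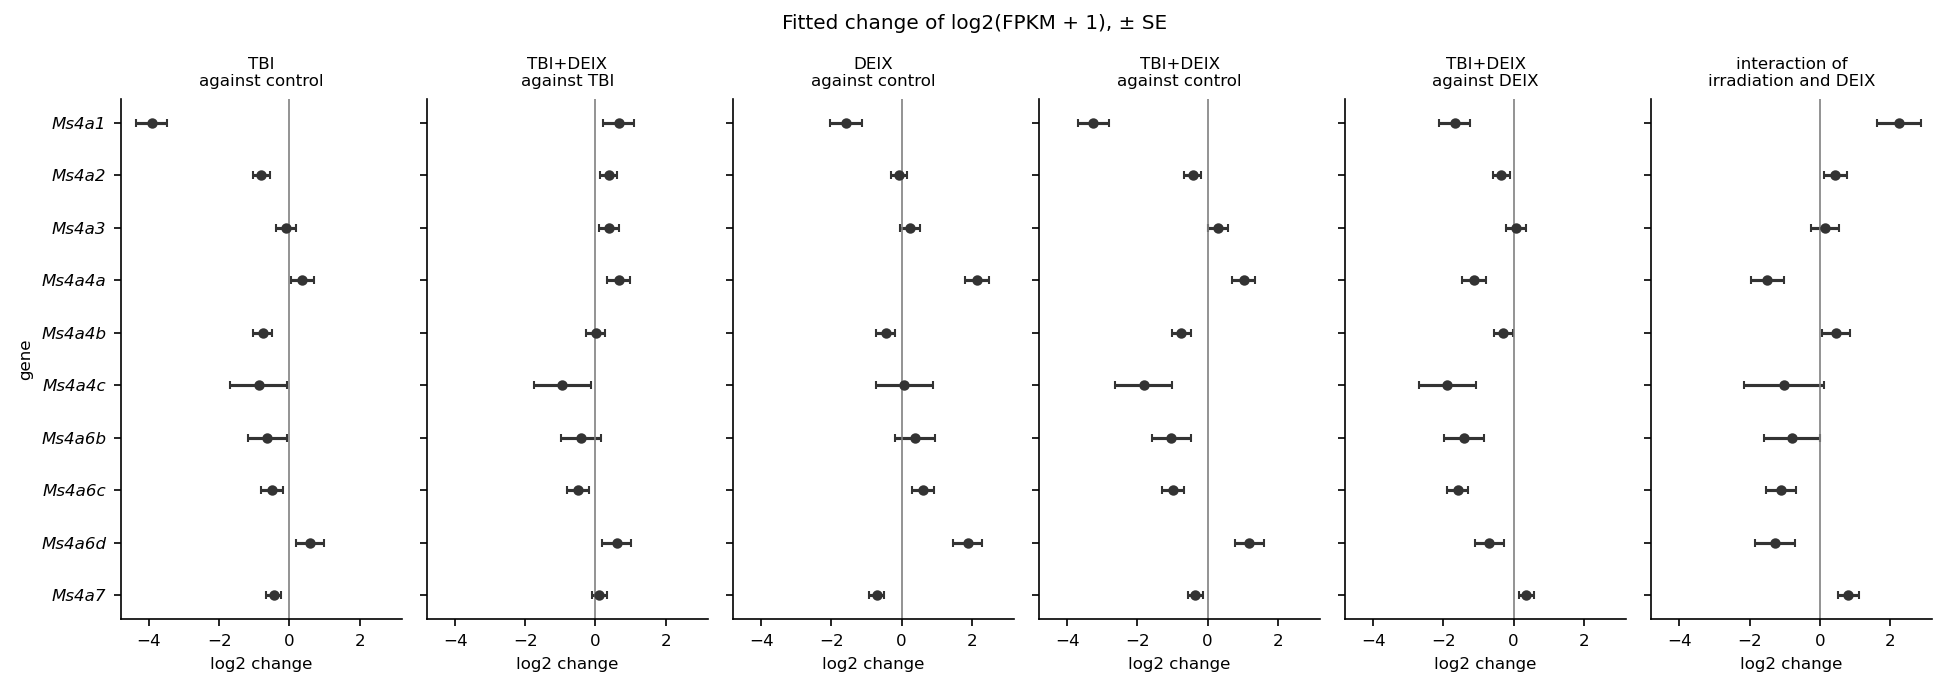
Fitted difference in log2(FPKM + 1) for each member (points) with its SE (bars) in 6 comparisons. Ms4a1 is at -3.92 in TBI against control and -3.26 in TBI+DEIX against control; Ms4a4a and Ms4a6d are at 2.15 and 1.88 in DEIX against control; Ms4a4c has the widest bars, with an SE of 0.81 except in the interaction, where it is 1.15.

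Over the 12 libraries the members were compared by the Pearson correlation of log2(FPKM + 1), given as a description, since the libraries share group and depth. The closest pair was Ms4a4c with Ms4a6b, at 0.98, and at 0.94 without TBI+DEIX replicate 1. These 2 genes are not close in sequence (61.48% identical). Ms4a6b with Ms4a6c was at 0.89, Ms4a4a with Ms4a6d at 0.89, and Ms4a4c with Ms4a6c at 0.86. The near-identical copies Ms4a4b and Ms4a4c were at 0.82, but at 0.59 without that library. Ms4a4a with Ms4a7 was at -0.62 with all libraries and -0.63 without it.

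**Figure D4:**
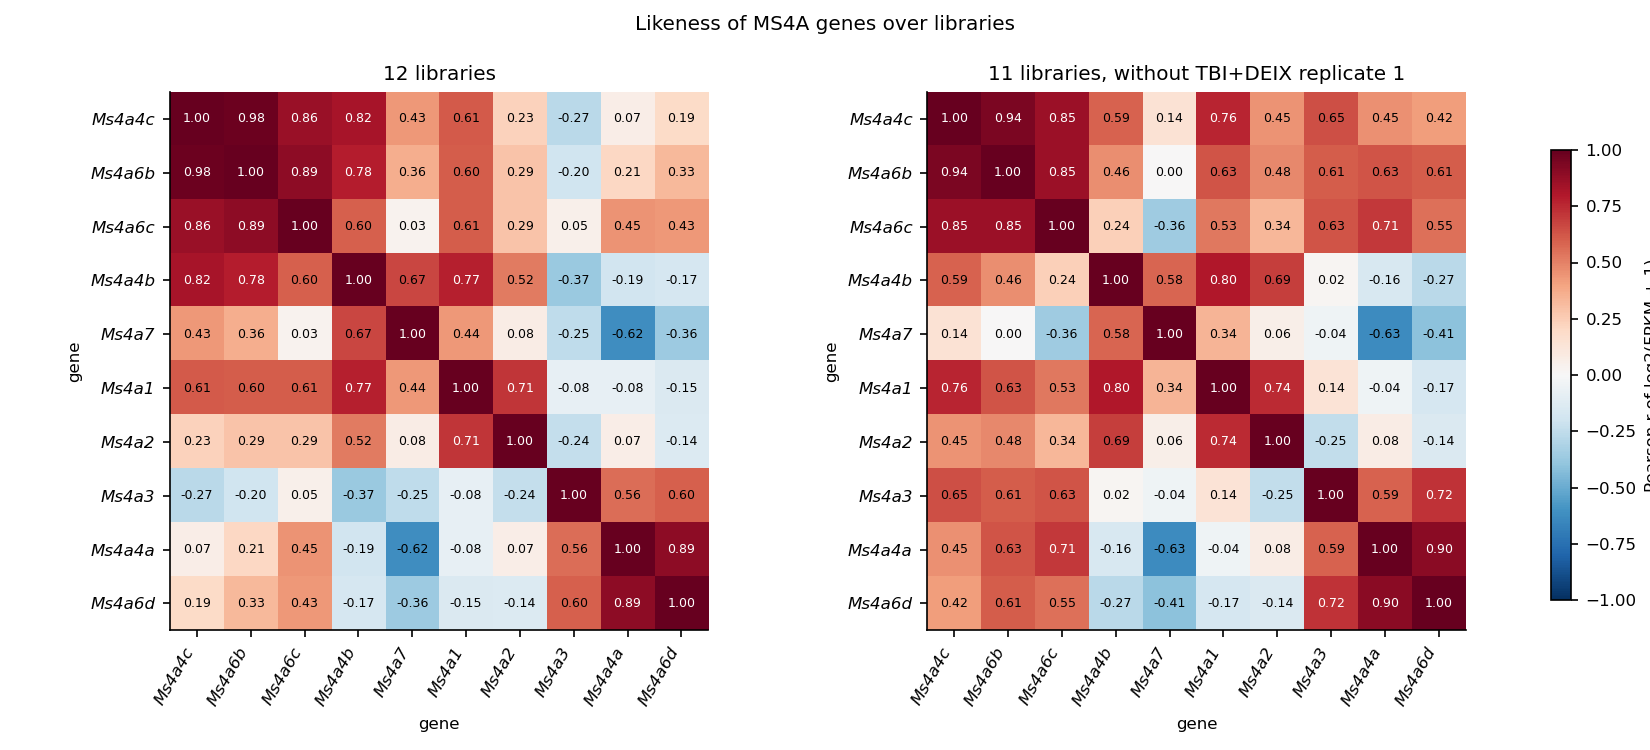
Pearson correlation of log2(FPKM + 1) between each 2 members, over 12 libraries (left) and over 11 without TBI+DEIX replicate 1 (right); red is positive and blue negative. Ms4a4c, Ms4a6b and Ms4a6c form a block of 0.86 to 0.98 on the left, and Ms4a4a with Ms4a6d a second pair of 0.89.

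Against all other tested genes over the same 12 libraries, the nearest patterns were these. For Ms4a1 they were Ralgps2 (0.97), Tspyl2 (0.96) and H2-Eb2 (0.95), the last a class II histocompatibility gene. Those of Ms4a2 were Alox15 (0.94), a lipoxygenase, Cd200r3 (0.93), a receptor on basophils and mast cells, and Cyp11a1 (0.91). For Ms4a3 they were Dmkn (0.91), Gfi1 (0.90), a transcription factor of granulocyte progenitors, and Prss57 (0.90), a granule protease. Ms4a4b was nearest to Cxcr3 (0.96), a chemokine receptor of T and NK cells, Ncr1 (0.96), an NK cell receptor, and Epsti1 (0.96).

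Among the monocyte members, Ms4a4c was nearest to Ms4a6b (0.98), S100a4 (0.97) and Hpse (0.97), and Ms4a6b to Hpse (0.99), Ms4a4c (0.98) and Ctsh (0.96). Hpse encodes heparanase and Ctsh a lysosomal protease. Ms4a6c was nearest to Ccl9 (0.96), a chemokine, Arhgef10l (0.96) and Klf4 (0.96), a transcription factor of monocytes. For Ms4a4a the nearest were Dpep2 (0.95), F10 (0.94), coagulation factor X, and Cd302 (0.94). Ms4a6d was nearest to Ufsp2 (0.97), a protease of a ubiquitin-like modifier, Ssr3 (0.95), a subunit of the translocon-associated complex of the endoplasmic reticulum, and Tmed10 (0.95), a cargo receptor of the early secretory pathway. Ms4a7 was nearest to Ifit2 (0.94), an interferon-induced gene, Cadm1 (0.92) and Asb2 (0.92). The sum of 10 interferon response genes was 970.2 to 1178 FPKM in control, 174 to 256 in TBI, 163.5 to 266.5 in DEIX and 49.4 to 620.8 in TBI+DEIX; its part in the values of Ms4a7 was not tested.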

How the data were processed

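The authors deposited 1 table of FPKM values per gene and library, made with STAR 2.6 and Cufflinks 2.2.1 on mm10, per the submitters' processing notes; the kit was a directional one from MGI, per the labels' protocols. The table holds no counts. All 21853 identifiers matched GENCODE vM21. S100a8, S100a9 and Ngp were at 0 in 2, 4 and 5 libraries and very high in the others, so they were left out of one alternative. Values were tested as log2(FPKM + 1), with a pseudocount of 1, for 10994 genes with at least 1 FPKM in at least 3 libraries, in 1 limma 3.58.1 model (R 4.3.3, trended eBayes) of 4 group means with 8 residual degrees of freedom. A gene was called where its p, adjusted by Benjamini-Hochberg, was under 0.05. The script was tested on simulated data.

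The members and lists were chosen with earlier results of these data known. One gene of the B cell list is not reported here and was left out of its sums and counts. All 10 members are named; from each marker list, genes among the 3 highest by mean FPKM; for likeness, the 3 highest correlations. Lyn and Syk are named as a count under 5, and Btk, Adgre1, Fcmr, Il7r, Rag1, Rag2, Ctsg, Gfi1, Cebpa, Cebpe and Kit were named after their values were seen. Fragments per FPKM were estimated from the steps of FPKM times length in genes with 1 transcript. Replicate numbers were not used as pairs: of 18 same-numbered pairs 3 had correlated deviations over 0.1 (range -0.447 to 0.242). The alternatives were another pseudocount (0.1), other filters (none, or 5 FPKM), a TPM scale, fits of the compared groups alone, array weights, a replicate block and each library left out; list counts without TBI+DEIX replicate 1 were added after seeing the data.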

Additional observations from a re-analysis of the deposited data

How the results depend on the processing

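Depth limits Ms4a1 in irradiated marrow, which had about 44.2, 89.5 and 75.9 fragments in TBI replicates 1 to 3. Ms4a4b and Ms4a7 were also low in FPKM and were not tested at a filter of 5 FPKM. In the same libraries Ms4a4b had about 570, 825 and 409 fragments and Ms4a7 about 299, 315 and 192. The count of called members moved as follows. With no filter on low values it was 1 (Ms4a1) in TBI+DEIX against control, where 3637 genes of the table were called. On a TPM scale it was 4 in DEIX against control and 5 in TBI+DEIX against control. Of these 5, 3 were shared with the 4 called in FPKM. The count was 2 in TBI+DEIX against DEIX, both with and without S100a8, S100a9 and Ngp. On the TPM scale 282, 1785 and 125 tested genes were called in these comparisons, and 246 in the last without those genes. TPM shifts the median of all genes to -0.12 in TBI+DEIX against TBI and in DEIX against control. With only the compared groups in the fit the called members were 3 in TBI, 5 in DEIX and 3 in TBI+DEIX against control. There were 0 in TBI+DEIX against DEIX. In the same order 1417, 2057, 2181 and 0 tested genes were called. The interaction needs all groups and was not run so. The calls of the whole table in TBI+DEIX against TBI went from 891 to 0. With array weights, whose estimation did not converge, the called members were 10 in TBI, 6 in DEIX and 8 in TBI+DEIX against control. There was 1 in TBI+DEIX against TBI, 4 against DEIX, and 5 for the interaction. In the same order 7017, 5249, 6866, 5532, 1222 and 1148 tested genes were called. The main fit called 439, 796, 3299, 891, 283 and 22. With the replicate number as a block the called members were 1 in TBI and 3 in both DEIX and TBI+DEIX against control. There were 0 in TBI+DEIX against TBI, against DEIX and for the interaction. In the same order 378, 640, 3000, 474, 180 and 20 tested genes were called. The replicate numbers did not pair the libraries. Under the block Ms4a6c lost its call in TBI+DEIX against DEIX (adjusted p 0.0564 by limma) and, with Ms4a6d, in TBI+DEIX against control (0.0587), where Ms4a4b gained one; on both TPM scales Ms4a4a lost and Ms4a4b gained a call there, and Ms4a4c gained one on the first (-2.04, adjusted p 0.0461 by limma). Leaving out each library gave 1 to 2 calls for TBI, 1 to 5 for DEIX and 1 to 5 for TBI+DEIX against control, 0 in every case for TBI+DEIX against TBI, and 0 to 2 both for TBI+DEIX against DEIX and for the interaction. The causes of these moves were not tested.

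Some differences changed sign, and not only small ones. With all libraries Ms4a4c was at -0.95 in TBI+DEIX against TBI and at -1.02 for the interaction, where Ms4a6b was at -0.79. In TBI+DEIX against TBI, Ms4a4b was at -0.038 with a pseudocount of 0.1, -0.13 on the TPM scale and -0.12 on the TPM scale without the 3 genes, and Ms4a7 at -0.0012 on the TPM scale. Ms4a4c in DEIX against control was at -0.077 on the TPM scale and -0.0034 with array weights. Array weights also turned Ms4a4c (0.027) and Ms4a6b (0.23) in TBI+DEIX against TBI, Ms4a3 in TBI+DEIX against control (-0.10) and against DEIX (-0.24), Ms4a4b in TBI+DEIX against DEIX (0.10), and the interactions of Ms4a3 (-0.016) and Ms4a4c (0.031). With 1 library left out at a time, differences that changed sign ranged in TBI+DEIX against TBI from -0.0088 to 1.09 (Ms4a1), -0.21 to 0.40 (Ms4a4b), -1.84 to 0.34 (Ms4a4c), -1.02 to 0.47 (Ms4a6b) and -0.053 to 0.35 (Ms4a7), in DEIX against control from -0.20 to 0.052 (Ms4a2), -0.012 to 0.38 (Ms4a3) and -0.0024 to 0.15 (Ms4a4c), in TBI against control from -0.31 to 0.12 (Ms4a3), in TBI+DEIX against DEIX from -0.16 to 0.31 (Ms4a3) and -0.52 to 0.10 (Ms4a4b), and for the interaction from -0.072 to 0.39 (Ms4a3), -1.91 to 0.27 (Ms4a4c) and -1.40 to 0.086 (Ms4a6b). None of these passed the test with all libraries.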
